A study of Mus musculus with 18 samples.

Results

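The genes described here are those of the necrotic death pathways: the necroptosis genes Ripk1, Ripk3, Mlkl, Zbp1, Casp8, Fadd, Cflar and Cyld, and the gasdermin genes Gsdmd and Gsdme. They were chosen by name and not by a cut on their values, though earlier results of these data were known. All 10 were rows of a table of 25239 genes. The table came from RNA sequencing of mouse small cell lung cancer (SCLC) cells of Type D, the name given to lines that lyse after p53 is switched back on. Lines 4711-1, 4711-18 and 4716-11 were grown from lung tumours of mice homozygous for the Trp53 XTR allele, for Rb1 flox and for Rbl2 flox, with a Rosa26 FlpO-ER allele, so every line lacked Rb1 and Rbl2 and, before treatment, carried a trapped Trp53 that FlpO can release. Each line carried sgBgal, a control sgRNA, or 1 of 2 sgRNAs against Ppia, the cyclophilin A gene, named sgPpia#3.2 and sgPpia#4.1. Cells received vehicle (Control) or 4-hydroxytamoxifen (Restored) for 72 h, which gave 6 groups of 3 samples with 1 sample per line in each. The study reports lysis of Type D lines from about that time on, so Restored samples may hold dying cells. Every Restored sample received tamoxifen, so p53 and the drug cannot be told apart, and the lines are cultured tumour cells without the lung tissue or immune cells around them.

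Necroptosis is a lytic death in which the kinase RIPK3 phosphorylates MLKL, which then breaks the plasma membrane. RIPK3 is reached from death receptors through the kinase RIPK1, or from nucleic acids through the sensor ZBP1, and the adaptor FADD with caspase-8 and its partner cFLIP (Cflar) restrains it by cutting RIPK1 and RIPK3. CYLD is a deubiquitinase that takes ubiquitin chains off RIPK1, and so favours its move into the death complexes. Gasdermins are pore proteins freed by proteases: GSDMD, for example, by the inflammatory caspases and by caspase-8. Loss of RIPK3 transcript is common in cultured tumour cells.

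In the table, Trp53 stood at 5.45 to 8.41 TPM (transcripts scaled to a fixed total per sample) in the 9 Control and 181 to 236 TPM in the 9 Restored samples. Ppia stood at 1551 to 2849 TPM with sgBgal, 658 to 1233 TPM with sgPpia#3.2 and 1191 to 1952 TPM with sgPpia#4.1, so its transcript was present throughout. Of the SCLC markers, Calca, Chga, Chgb, Neurod1 and Pou2f3 stayed at or below 0.215 TPM in every sample, while Ncam1 stood at 6.90 to 29.7 TPM and Yap1 at 63.2 to 125 TPM. The neuroendocrine markers were not all at 0: Syp stood at 3.03 to 7.12 TPM and Uchl1 at 1.21 to 2.81 TPM, and Insm1 stood at 1.78 to 3.37 TPM in line 4711-1 and at or below 0.0690 TPM in the other lines. Fibroblast markers summed to at most 1.22 TPM and endothelial markers to at most 1.51 TPM. The 7 leukocyte markers summed to 3.15 to 7.44 TPM in Control and 23.0 to 42.9 TPM in Restored samples, of which Cd68, a lysosomal protein gene, gave the most at 21.3 to 39.8 TPM in Restored samples. Ptprc, the pan-leukocyte marker, stayed at or below 0.0814 TPM and Adgre1, a macrophage marker, at or below 0.0631 TPM. The part of Cd68 and the other leukocyte markers in the p53 response of the members was not tested.

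Promoter windows are shown for Cyld and Mlkl, the members called for the p53 response in the fit without a block, and for Ripk3, the member with the largest difference between lines. Each window is the 250 bases before the RefSeq start on GRCm38.p6, 5′ to 3′ on the gene's strand, with motif matches in capitals. The windows are chr8:88696778-88697027 (plus strand) for Cyld, chr8:111338206-111338455 (minus strand) for Mlkl and chr14:55788858-55789107 (minus strand) for Ripk3. In the GENCODE annotation of GRCm38 the genes span chr8:88697028-88751945, chr8:111311797-111338177 and chr14:55784995-55788865, so the windows lie upstream of Cyld and Mlkl, and that of Ripk3 overlaps the first bases of the gene.
Cyld: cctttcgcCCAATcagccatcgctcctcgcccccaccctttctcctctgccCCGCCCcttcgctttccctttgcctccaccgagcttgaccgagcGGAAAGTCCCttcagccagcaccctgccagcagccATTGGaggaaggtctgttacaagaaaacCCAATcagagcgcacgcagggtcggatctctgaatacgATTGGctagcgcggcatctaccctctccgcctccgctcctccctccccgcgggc
Mlkl: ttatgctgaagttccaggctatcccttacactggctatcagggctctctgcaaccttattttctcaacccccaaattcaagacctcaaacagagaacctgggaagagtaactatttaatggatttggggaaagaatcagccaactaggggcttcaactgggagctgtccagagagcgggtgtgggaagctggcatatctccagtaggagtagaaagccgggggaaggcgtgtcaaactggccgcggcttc
Ripk3: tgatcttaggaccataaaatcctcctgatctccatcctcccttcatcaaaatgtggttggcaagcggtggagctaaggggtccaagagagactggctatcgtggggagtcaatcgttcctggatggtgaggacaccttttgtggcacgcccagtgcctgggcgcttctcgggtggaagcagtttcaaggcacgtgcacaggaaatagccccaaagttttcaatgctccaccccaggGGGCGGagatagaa
In 8 of the 10 genes a RefSeq start was matched, with 9 windows in all because Ripk1 has 2 starts. Both strands were searched for 7 motifs: the p53 motif (1 copy of its repeat unit) and the NF-kB site, both by name, the ISRE core (GAAA repeated after a gap of 2 bases), the GAS motif TTCNNNGAA, the GC box GGGCGG, the TATA box TATAAA and CCAAT. The capitals in the Cyld window mark CCAAT on either strand, a GC box and an NF-kB site, and the capitals in the Ripk3 window mark a GC box. The Mlkl window held none of the 7, as did 28.6% of 32851 mouse windows of the same length. None of the 9 windows held the p53 motif, against 7.13% of all windows, and none held the ISRE core, against 2.98%. The NF-kB site of Cyld was shared by 7.25% of all windows and the GC box by 32.7%. Among the other genes, Ripk1 had GC boxes before both starts and GAS motifs before the second (7.02% of all windows), Fadd and Gsdme had GC boxes, Cflar had a TATA box (12.4%) with overlapping matches on the 2 strands, and Casp8 had CCAAT (33.8%). The CpG count was 18 in the Cyld window, 5 in that of Mlkl and 8 in that of Ripk3, and the median over all windows was 6. A match is a description of letters and not a site bound in these cells.

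The executioner genes Mlkl and Gsdmd were well expressed. Ripk3, whose product acts just above MLKL, was low, and Zbp1, whose product acts above RIPK3, was near 0. TPM are corrected for transcript length, so levels can be set side by side between genes. Gsdmd was the highest of the 10, at 131 to 264 TPM (median 212) over 18 samples, and its mean was above that of 93.4% of the 12828 genes tested. Mlkl followed at 55.7 to 170 TPM (median 94.9), above 84.8% of tested genes, and Casp8 at 49.4 to 86.1 TPM (median 65.9). The ranges of these neighbours overlapped.

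Cyld stood at 17.7 to 72.9 TPM, Ripk1 at 22.6 to 51.7 TPM and Gsdme, the other gasdermin gene, at 12.05 to 50.3 TPM. Fadd, the adaptor, stood at 11.5 to 17.2 TPM and Cflar stood at 5.03 to 24.0 TPM. Neighbours in this order overlapped as well.

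Ripk3 stood apart from the 8 genes above it: its 0.0428 to 2.32 TPM (median 1.23) did not overlap with any of theirs. It reached 1 TPM in 11 of 18 samples, and its mean was above that of 6.90% of tested genes. In every sample Mlkl was at least 26.4 times as high as Ripk3. Zbp1 was lower still, at 0 in 6 samples and at most 0.304 TPM. Counted in the smallest steps between values that the table holds, taken as 1 read, Zbp1 rested on 0 to 20 steps and Ripk3 on 2 to 122, so Zbp1 rested on few reads and did not pass the filter of the test (at least 1 TPM in at least 3 samples). In bulk RNA, fewer cells with a transcript and less of it per cell cannot be told apart.

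**Figure D1:**
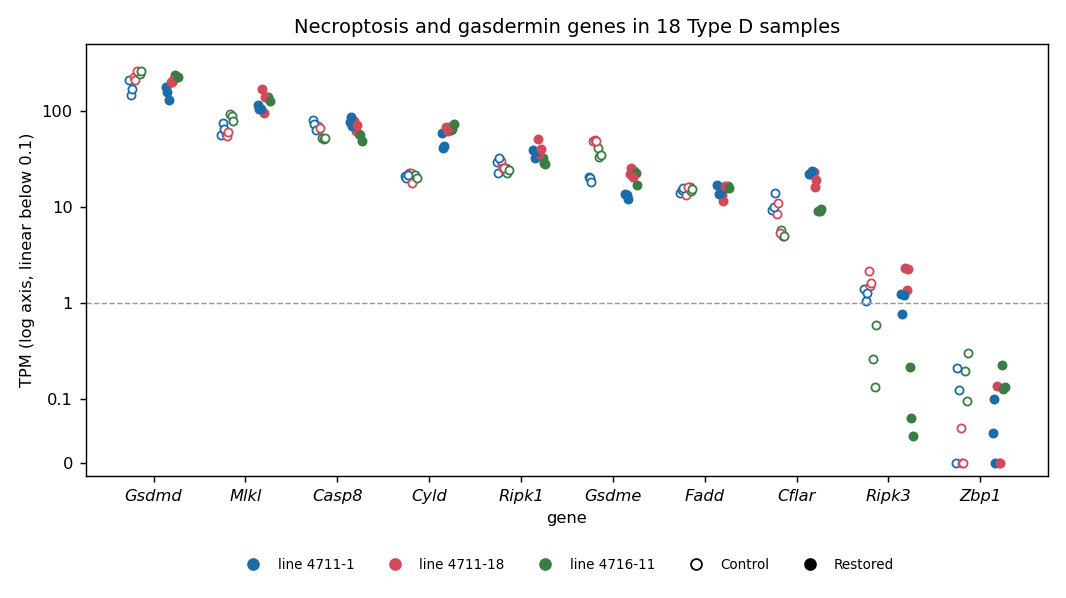
TPM of the 10 genes in all 18 samples, ordered by mean level on a logarithmic axis that is linear below 0.1 TPM; open symbols are Control, filled symbols Restored, and colours mark the line. Gsdmd and Mlkl sit highest, Ripk3 lies around the dashed line at 1 TPM in the 4711 lines and below it in line 4716-11, and Zbp1 is at or near 0.

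The first comparison asked how restoring p53 changed these genes. In the fit without a block on the cell line, Cyld rose with each of the 3 sgRNAs and Mlkl rose in sgBgal cells, and no other member was called. With the block Cflar was called higher too, in sgBgal and sgPpia#4.1 cells. In each fit a gene was called at an adjusted p under 0.05 and a log2 fold change of at least 1 in size, with limma on log2(TPM + 1). By this rule 2 of the 9 tested members were called higher in sgBgal cells, where 5.46% of all tested genes were, and 1 of 9 was called higher in sgPpia#3.2 cells (4.44% of all genes) and in sgPpia#4.1 cells (4.3%). None was called lower, against 2.17%, 1.31% and 1.79% of all genes. The median log2 fold change of the 9 members was 0.08, 0.11 and 0.06, and that of all tested genes was 0.19, 0.17 and 0.15, in the same order of sgRNAs. The median of all genes was thus above 0, and a rescaling by the median of ratios moved it to -0.00253, -0.00681 and -0.00273.

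Cyld in sgBgal cells stood at 21.1, 22.9 and 21.4 TPM in Control samples of lines 4711-1, 4711-18 and 4716-11, and at 59.9, 68.0 and 62.9 TPM in Restored samples. With sgPpia#3.2 it stood at 20.2, 22.9 and 21.7 TPM in Control and 41.6, 62.0 and 64.8 TPM in Restored samples. With sgPpia#4.1 the values were 21.6, 17.7 and 20.2 TPM and 43.1, 67.9 and 72.9 TPM. The 9 Restored samples all lay above the 9 Control samples, as they did for 8.12% of tested genes, and the lowest Restored values were those of line 4711-1 with the Ppia sgRNAs. The log2 fold change was 1.50 (SE 0.20, adjusted p = 0.000228) in sgBgal cells, 1.31 (adjusted p = 0.000732) in sgPpia#3.2 cells and 1.55 (adjusted p = 0.000196) in sgPpia#4.1 cells. The call was made in all 3 under the rescaling too, and was lost in sgPpia#3.2 cells without line 4716-11 (log2 fold change 1.20, adjusted p = 0.0818).

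Mlkl in sgBgal cells stood at 55.8, 57.9 and 93.2 TPM in Control and 116, 170 and 140 TPM in Restored samples, in the same order of lines. With sgPpia#3.2 it stood at 75.6, 55.7 and 88.9 TPM in Control and 106, 96.5 and 139 TPM in Restored samples. With sgPpia#4.1 it stood at 64.5, 60.4 and 79.3 TPM in Control and 106, 140 and 129 TPM in Restored samples. The 9 Restored samples again lay above all 9 Control samples, with 1.40 to 2.93 times the TPM of the Control sample of the same line and sgRNA. The log2 fold change was 1.05 (SE 0.24, adjusted p = 0.010) in sgBgal cells, 0.63 (adjusted p = 0.115) in sgPpia#3.2 cells and 0.87 (adjusted p = 0.0326) in sgPpia#4.1 cells. The call in sgBgal cells was lost under the rescaling (0.83, adjusted p = 0.0573), with only the 2 groups compared in the fit (adjusted p = 0.0699), without line 4711-1 (1.06, adjusted p = 0.104) and without line 4711-18 (0.81, adjusted p = 0.118). With the cell line as a block, adjusted p was 0.00075, 0.0176 and 0.00309 for the 3 sgRNAs.

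Cflar, the brake on caspase-8, was higher in Restored samples within each line, with Control and Restored ranges that overlapped between lines. In sgBgal cells it stood at 9.44, 8.49 and 5.84 TPM in Control and 22.03, 23.1 and 9.06 TPM in Restored samples of lines 4711-1, 4711-18 and 4716-11. With sgPpia#3.2 it stood at 9.94, 11.1 and 5.06 TPM and then 22.4, 16.2 and 9.14 TPM, and with sgPpia#4.1 at 13.9, 5.37 and 5.03 TPM and then 24.0, 19.4 and 9.61 TPM. The overlap arose because Restored samples of line 4716-11 (9.06 to 9.61 TPM) lay below some Control samples of the other lines. The log2 fold change was 1.01 (SE 0.46), 0.78 and 1.08 for the 3 sgRNAs, with adjusted p of 0.163, 0.33 and 0.162. With the cell line as a block adjusted p was 0.00274, 0.0141 and 0.00225, and Cflar was then called higher with sgBgal and sgPpia#4.1. With both the block and the rescaling its log2 fold changes were 0.81 and 0.92 in those cells, short of the call, and that of Mlkl in sgBgal cells was 0.83, short of it as well. With the block 3 of 9 members were called higher in sgBgal cells (7.7% of all genes), 1 in sgPpia#3.2 cells (6.4%) and 2 in sgPpia#4.1 cells (6.26%), and none was called lower (3.32%, 2.21% and 2.92%).

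Gsdme was the member with the lowest fold changes. In sgBgal cells it stood at 20.4, 48.6 and 41.2 TPM in Control and 13.7, 22.2 and 23.7 TPM in Restored samples. With sgPpia#3.2 it stood at 19.9, 50.3 and 32.9 TPM and then 13.5, 25.6 and 22.8 TPM, and with sgPpia#4.1 at 18.4, 48.8 and 34.8 TPM and then 12.05, 20.9 and 16.9 TPM. All Control samples of line 4711-1 lay below the highest Restored samples of the other lines, so the groups overlapped. The log2 fold change was -0.80 (SE 0.42), -0.66 and -0.92, with adjusted p of 0.232, 0.373 and 0.196. With the cell line as a block adjusted p was 0.000928, 0.00375 and 0.000424, at a fold change still short of the call, and with both the block and the rescaling Gsdme was called lower in sgBgal (-1.01) and sgPpia#4.1 cells (-1.09). Without line 4711-1 it was called lower in sgPpia#4.1 cells (-1.09, adjusted p = 0.046).

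**Figure D2:**
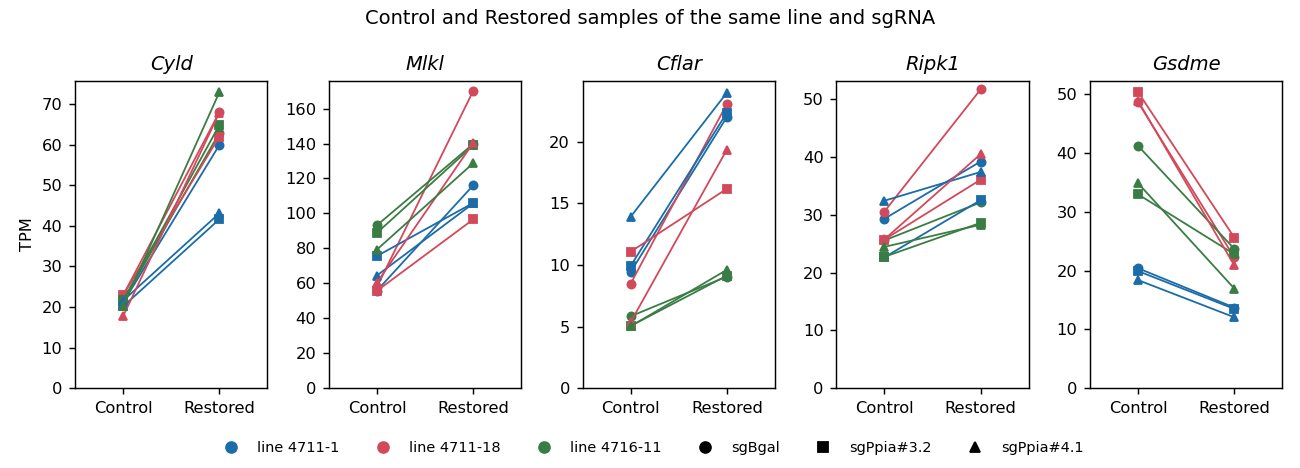
TPM of Cyld, Mlkl, Cflar, Ripk1 and Gsdme in Control and Restored samples, with a line joining the 2 samples of the same cell line and sgRNA; colours mark the cell line and symbols the sgRNA, on linear axes from 0. All 9 pairs go up for Cyld, Mlkl, Cflar and Ripk1, and all 9 go down for Gsdme.

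Within the pairs of same line and same sgRNA, 4 members were higher in Restored samples in 9 of 9 pairs, which was the case for 30.8% of tested genes. The log2 differences were 0.97 to 1.88 for Cyld, 0.48 to 1.54 for Mlkl, 0.51 to 1.68 for Cflar and 0.20 to 0.74 for Ripk1. Gsdme was lower in 9 of 9 pairs, by -1.19 to -0.51, against 12.8% of tested genes. The remaining members had no common direction over all pairs: Gsdmd was lower in 8 of 9, Ripk3 in 7 of 9 and Fadd in 5 of 9, and Casp8 was higher in 6 of 9.

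Ripk1 stood at 22.6 to 32.5 TPM in Control and 28.3 to 51.7 TPM in Restored samples, and its log2 fold changes of 0.49, 0.43 and 0.35 did not pass the test (adjusted p = 0.104, 0.18 and 0.29). With the block adjusted p was 0.0085, 0.0196 and 0.0513. Gsdmd stood at 148 to 264 TPM in Control and 131 to 239 TPM in Restored samples, with log2 fold changes of -0.16, -0.03 and -0.30. Casp8 (0.08, 0.11 and 0.06) and Fadd (0.03, -0.06 and -0.02) had fold changes near 0, and under the rescaling those of Casp8 were below 0 in all 3, and that of Fadd in sgBgal cells was too. For Casp8 the 95% interval in sgBgal cells ran from -0.40 to 0.57, and for Fadd from -0.29 to 0.34.

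Ripk3 was not called for the p53 response. It stood at 1.40, 2.19 and 0.264 TPM in Control and 1.24, 2.32 and 0.219 TPM in Restored sgBgal samples of lines 4711-1, 4711-18 and 4716-11. With sgPpia#3.2 it stood at 1.05, 1.52 and 0.135 TPM and then 0.781, 1.37 and 0.0707 TPM, and with sgPpia#4.1 at 1.27, 1.61 and 0.589 TPM and then 1.23, 2.26 and 0.0428 TPM. Its order followed the line in each of the 6 groups, with 4711-18 highest and 4716-11 lowest. The log2 fold changes were -0.03, -0.12 and -0.11, with a 95% interval of -1.08 to 1.02 in sgBgal cells. At the low level of Ripk3, a difference on the log2(TPM + 1) scale understates the ratio of TPM, so the interval does not bound that ratio at 2-fold.

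**Figure D3:**
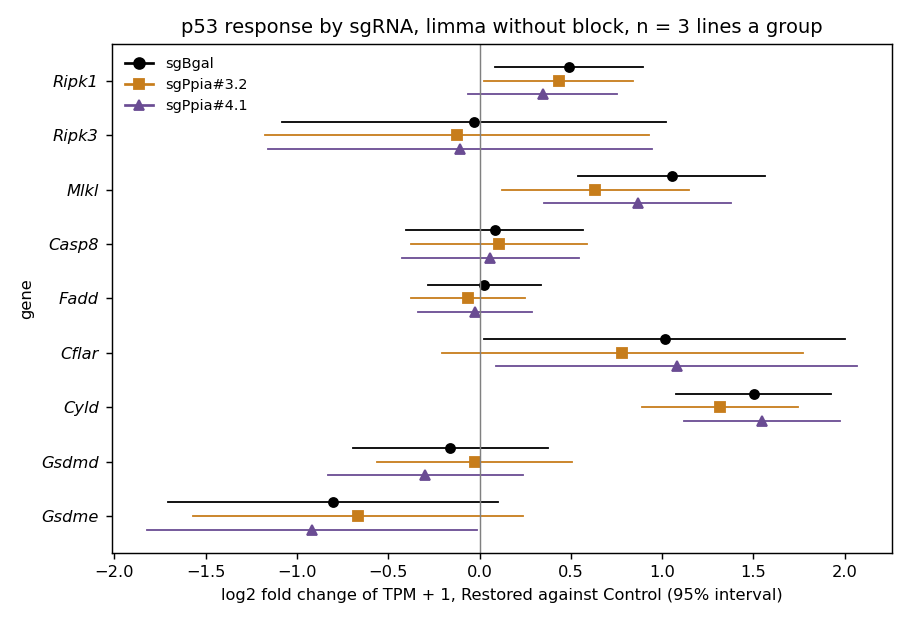
Log2 fold change of TPM + 1 of the 9 tested members, Restored against Control, for each sgRNA, from limma without a block (3 lines a group); bars are 95% intervals. Cyld and Mlkl lie right of 0 with all their bars, Casp8, Fadd, Ripk3 and Gsdmd have bars across 0, and the points of Gsdme lie left of 0 with bars that cross it for sgBgal and sgPpia#3.2. Ripk1 and Cflar have points right of 0, each with 1 bar that crosses it.

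The second comparison asked whether sgRNAs against Ppia changed the members or their response. No member passed the test in any of the 4 comparisons with sgBgal, which share the sgBgal samples, and 0 of 12828 genes did (0%) with limma, while 311 (2.42%), 154 (1.2%), 27 (0.21%) and 68 (0.53%) genes had an unadjusted p under 0.05. The order is sgPpia#3.2 in Control and Restored cells, then sgPpia#4.1 in both. A block on the cell line gave 2, 1, 0 and 0 called genes in that order, none of them a member. Without the block Ppia, the target of the sgRNAs, was not called either. In Control samples of lines 4711-1, 4711-18 and 4716-11 it stood at 2704, 2575 and 2849 TPM with sgBgal. With sgPpia#3.2 it stood at 1073, 658 and 1207 TPM. The lack of a call for a member thus does not show the lack of a difference. With sgPpia#3.2 the members' log2 differences from sgBgal ran from -0.25 (Ripk1) to 0.10 (Mlkl) in Control and from -0.33 (Ripk3) to 0.04 (Gsdme) in Restored cells. With sgPpia#4.1 they ran from -0.13 (Cyld) to 0.07 (Fadd) in Control and from -0.24 (Gsdme) to 0.02 (Fadd) in Restored cells. Without the block all adjusted p-values of the members were 1, and none had an unadjusted p under 0.05. With it, Ripk1 and Ripk3 had unadjusted p of 0.0304 and 0.0305 for sgPpia#3.2 in Restored cells, with an adjusted p of 0.57 for both by limma. For Mlkl in Restored cells the 95% interval was -0.83 to 0.20 with sgPpia#3.2 and -0.69 to 0.34 with sgPpia#4.1, and for Cyld it was -0.63 to 0.23 and -0.51 to 0.34. Those intervals bound the difference at less than 1 on the log2 scale for both genes.

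The p53 response itself was compared between sgRNAs by the interaction, called at the adjusted p alone. For Mlkl the response with a Ppia sgRNA minus that with sgBgal was -0.42 (95% interval -1.14 to 0.30) with sgPpia#3.2 and -0.19 (-0.91 to 0.54) with sgPpia#4.1, and both had an adjusted p of 1. For Cyld the difference was -0.19 (-0.79 to 0.42) and 0.05 (-0.56 to 0.65). The larger value of Mlkl in sgBgal cells, where alone it was called, was thus not shown to differ from its value in the other cells. With the cell line as a block 0 genes were called for the interaction as well (175, or 1.36%, and 80, or 0.624%, with an unadjusted p under 0.05, against 31, or 0.242%, and 18, or 0.14%, without the block), and the smallest adjusted p of a member in any Ppia comparison was 0.43, for Ripk1.

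The third comparison was between the cell lines. It was fitted with the 6 groups as terms, and its p-values measure the spread between libraries of a line, and a line was represented by its own 6 samples only. Called genes made up 8.93% of those tested between 4711-18 and 4711-1, 6.82% between 4716-11 and 4711-1, and 8.96% between 4716-11 and 4711-18. Among the members, Gsdme was called in the first of these and Cflar in the second. Gsdme was higher in 4711-18 than in 4711-1 (log2 difference 1.03, SE 0.10, adjusted p = 3.21e-06), and Cflar was lower in 4716-11 than in 4711-1 (-1.07, SE 0.15, adjusted p = 0.000109). For Ripk3 the log2 difference of 4716-11 from 4711-18 was -1.24, given as a description.

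Ripk3 stood at 0.781 to 1.40 TPM (median 1.23) in 4711-1, 1.37 to 2.32 TPM (median 1.90) in 4711-18 and 0.0428 to 0.589 TPM (median 0.177) in 4716-11. It passed the filter on low values through the 4711 lines alone, so its low level in 4716-11 is given with no test. In 4716-11 it rested on 2 to 40 of the smallest steps, against 54 to 95 and 75 to 122 in the other lines. Mlkl did not share that order: it stood at 79.3 to 140 TPM in 4716-11 and at 55.7 to 170 TPM in 4711-18, with a log2 difference of 0.31 (adjusted p = 0.0599). Mlkl was 135 to 3004 times as high as Ripk3 in 4716-11, where the upper end rests on 2 steps of Ripk3, and 26.4 to 73.3 times as high in 4711-18.

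Cflar stood at 9.44 to 24.0 TPM in 4711-1, 5.37 to 23.1 TPM in 4711-18 and 5.03 to 9.61 TPM in 4716-11, the line with the narrowest range. Casp8, its partner, was 49.4 to 57.2 TPM in 4716-11, below all 6 samples of 4711-1 (64.0 to 86.1 TPM, log2 difference -0.48, adjusted p = 0.000251) and of 4711-18 (62.8 to 79.1 TPM, -0.37, adjusted p = 0.00138). Groups of 6 did not overlap in that direction for 10.9% and 12.2% of tested genes. Both differences were short of the fold needed for a call, and under the rescaling the second was not past the adjusted p either (-0.19, adjusted p = 0.0686). Gsdme was 12.05 to 20.4 TPM in 4711-1, 20.9 to 50.3 TPM in 4711-18 and 16.9 to 41.2 TPM in 4716-11. All 6 samples of 4711-18 lay above those of 4711-1, as they did for 8.33% of tested genes. Gsdmd was 131 to 213 TPM in 4711-1, lower than in 4711-18 (201 to 264 TPM) and 4716-11 (225 to 260 TPM) by less than the fold needed for a call. Its 6 samples of 4716-11 all lay above those of 4711-1, as for 6.93% of tested genes. Line 4711-1 was thus the lowest for both gasdermins by median, and 4716-11 for Ripk3, Cflar and Casp8.

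**Figure D4:**
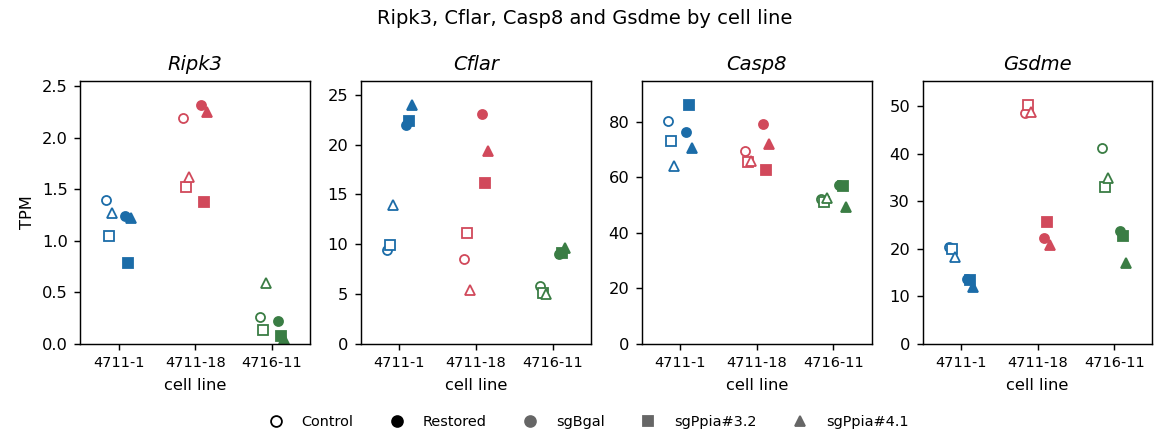
TPM of Ripk3, Cflar, Casp8 and Gsdme in the 6 samples of each line, on linear axes from 0; open symbols are Control, filled symbols Restored, and shapes mark the sgRNA. Ripk3 lies at or below 0.589 TPM and Casp8 at or below 57.2 TPM in all samples of 4716-11, and Gsdme has its lowest median in 4711-1.

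Upstream of the members, the death receptor genes Fas and Tnfrsf10b rose with p53 restoration, and the ligand genes Fasl, Tnfsf10 and Tnf were hardly transcribed. Of 13 ligand, receptor and adaptor genes, 9 were tested and 2 were called higher with each sgRNA, where 5.46%, 4.44% and 4.3% of all tested genes were. None was called lower. Fas, the receptor of FasL, stood at 1.16 to 8.71 TPM in Control and 37.9 to 139 TPM in Restored samples, with log2 fold changes of 3.54 (adjusted p = 0.00139), 4.31 and 3.50. Tnfrsf10b, the mouse TRAIL receptor, stood at 16.3 to 43.9 TPM and then 70.7 to 211 TPM, with log2 fold changes of 2.198 (adjusted p = 0.0106), 2.08 and 2.05. Both are known p53 targets. The groups did not overlap for either gene.

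The ligands were at or near 0: Fasl was at most 0.0597 TPM and at 0 in 16 of 18 samples, Tnfsf10 (TRAIL) was at most 0.024 TPM, and Tnf was 0.0719 to 0.633 TPM in Control and 0 to 0.172 TPM in Restored samples. Tnfrsf1a, the TNF receptor that recruits RIPK1, was high throughout, at 81.5 to 245 TPM, and did not pass the test (0.49, 0.61 and 0.52). Tnfrsf1b, the other TNF receptor gene, stood at 9.57 to 24.7 TPM in Control and 5.59 to 16.3 TPM in Restored samples, with log2 fold changes of -0.67, -0.38 and -0.81 that did not pass the test either (adjusted p = 0.189, 0.523 and 0.132). Tradd, the adaptor of the Tnfrsf1a product, was at 51.5 to 90.3 TPM. Tlr3 and Ticam1, whose product TRIF can bind RIPK3, were at 2.26 to 8.05 TPM and 5.18 to 31.4 TPM, and neither was called.

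In the TNF receptor complex, 2 of 22 genes were called higher in sgBgal and sgPpia#3.2 cells and 1 in sgPpia#4.1 cells, shares of the list not far from those of all tested genes (5.46%, 4.44% and 4.3%). Ikbke, an IKK-related kinase, was called in all 3 (1.77, 1.54 and 1.41). Ikbkg, which encodes NEMO, was called in sgBgal cells (1.06, adjusted p = 0.0306) and in sgPpia#3.2 cells (1.13, adjusted p = 0.0275). Rbck1, which encodes the HOIL-1 subunit of the LUBAC ubiquitin ligase, was called only with the block (1.03 and 1.06 in the same cells). The ubiquitin ligase genes that hold RIPK1 in its survival complex did not pass the call: Birc2 was at 9.30 to 18.3 TPM, Birc3 at 3.36 to 16.2 TPM, Xiap at 24.0 to 44.7 TPM and Traf2 at 26.0 to 48.7 TPM. Tnfaip3, a ubiquitin editing gene, ranged from 26.4 to 186 TPM within Control samples. The median log2 fold change of the 22 genes was 0.39, 0.42 and 0.32.

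Downstream of RIPK3, none of 23 genes that regulate MLKL or repair the membrane was called. Of all tested genes 5.46%, 4.44% and 4.3% were called higher and 2.17%, 1.31% and 1.79% lower. The median log2 fold change of the 23 genes was 0.19, 0.09 and 0.18. The chaperone genes Hsp90ab1 (2722 to 4569 TPM) and Hsp90aa1 (490 to 1061 TPM) and Anxa1 (841 to 2438 TPM), a membrane repair gene, were the highest of them. Pgam5, a mitochondrial phosphatase placed below RIPK3, was at 45.0 to 76.1 TPM. Pdcd6ip, which encodes the ESCRT partner ALIX, passed the adjusted p with each sgRNA at log2 fold changes of 0.85, 0.85 and 0.87, short of the call.

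For the gasdermins, most inflammasome genes were nearly silent. Of 29 inflammasome and pyroptosis genes, 6 passed the filter on low values and none of these was called. The shares called over all tested genes were 5.46%, 4.44% and 4.3% higher and 2.17%, 1.31% and 1.79% lower. With the block Il18 was called higher in sgPpia#3.2 cells, as were 6.4% of all tested genes. The other 7 gasdermin genes in the table (Gsdma, Gsdma2, Gsdma3, Gsdmc, Gsdmc2, Gsdmc3 and Gsdmc4) were at most 0.231 TPM. Casp1 was at most 0.0869 TPM and at 0 in 14 of 18 samples, Casp4 was at most 0.297 TPM, Pycard, the ASC adaptor, at most 0.335 TPM, Nlrp3 at most 0.213 TPM and Il1b at most 0.0442 TPM. The sensors Aim2 (4.08 to 57.3 TPM), Nlrc4 (1.73 to 15.8 TPM) and Naip2 (1.34 to 6.84 TPM) were transcribed without these partners. Aim2 and Nlrc4 were not called for p53 and differed between lines: the log2 difference of 4716-11 from 4711-18 was 3.001 for Aim2 (adjusted p = 3.89e-09) and 1.68 for Nlrc4 (adjusted p = 5.89e-08). Ninj1, whose product ruptures the membrane late in lytic death, was at 124 to 183 TPM in Control and 176 to 368 TPM in Restored samples, with log2 fold changes of 0.73, 0.83 and 0.92 (adjusted p = 0.102, 0.0816 and 0.0514).

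Of the apoptosis genes, Apaf1 and Bax were called higher with every sgRNA. Apaf1, the apoptosome scaffold, had log2 fold changes of 2.17, 2.08 and 1.99, and Bax, the mitochondrial pore gene, of 1.34, 1.30 and 1.23. Of the nucleic acid sensing and interferon genes, 18 of 23 were tested and none was called. Over all tested genes 5.46%, 4.44% and 4.3% were called higher and 2.17%, 1.31% and 1.79% lower. With the block Ifit3 was called higher in sgPpia#3.2 cells, as were 6.4% of all tested genes. Ifih1 (0.345 to 5.73 TPM) and Rigi (1.11 to 4.32 TPM), which sense viral RNA, were low.

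**Figure D5:**
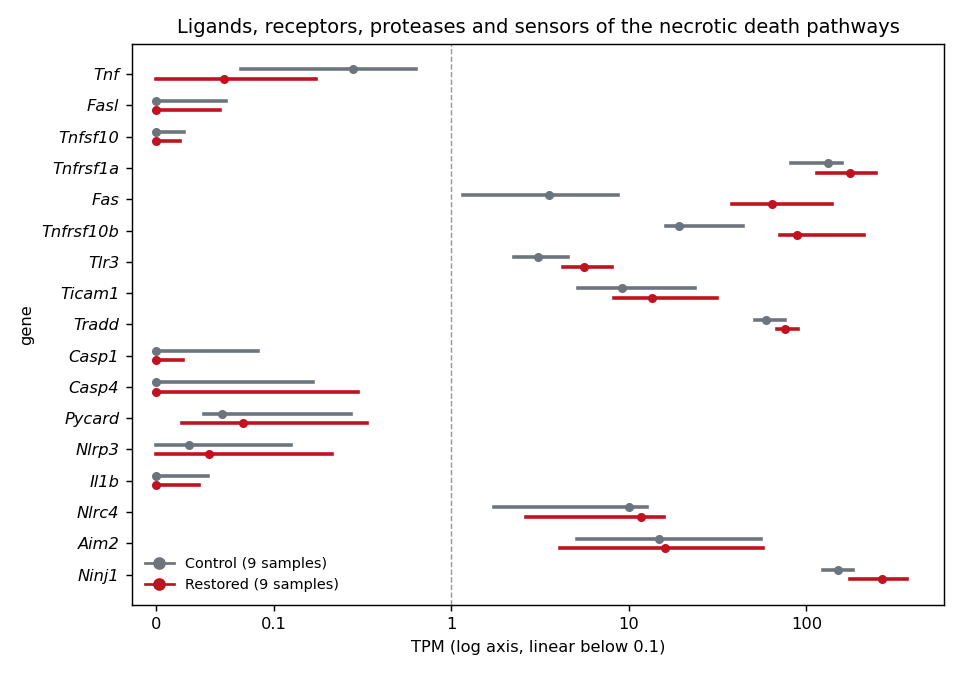
Range (bars) and median (points) of TPM in 9 Control and 9 Restored samples for ligands, receptors, proteases and sensors of the necrotic death pathways, on a logarithmic axis that is linear below 0.1 TPM. The ligands, Casp1, Casp4, Pycard, Nlrp3 and Il1b lie left of the dashed line at 1 TPM, Fas and Tnfrsf10b have separate ranges in Control and Restored samples, and Ninj1 lies at or above 124 TPM.

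For members that spanned at least 1 on the log2 scale, the 3 tested genes with the most similar pattern over the 18 samples were sought, as a description. Samples share lines and sgRNAs, so the 18 points are not independent. Cyld was most like Sytl1, Ptk2 and Trafd1 (Pearson r of 0.99 each), Cflar like Lrrc8a (0.99), Mpp5 and Golga4 (0.97 each), and Mlkl like Aspscr1 (0.95), Gpn2 (0.94) and Trim12c (0.93). Ripk3 was most like Pex19 (0.97), Cxcl16 (0.96) and Gnai3 (0.96), Gsdme like Hadh (0.97), Prokr1 (0.96) and Pdgfrl (0.96), and Ripk1 like Ammecr1l, Esco1 and Vps11 (0.96 each). No member was among the 3 genes nearest to another.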

How the data were processed

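Total RNA of 18 cell line samples was sequenced, per the labels. The authors deposited TPM for 25239 genes in 18 columns. The submitters' processing notes name bcl2fastq 2.17, HISAT2, mm10 and GRCm39. Which build and counter gave the TPM is not stated. TPM hold no total count, so depth is unknown, and relative depth from the steps between low values ran from 1 to 1.77 (ratio to the shallowest sample).

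Values were tested as log2(TPM + 1), with genes of at least 1 TPM in at least 3 samples (12828), by limma 3.58.1 in R 4.3.3, with 1 mean for each of 6 groups and Benjamini-Hochberg adjustment over all tested genes. Fold changes understate those of low genes. Samples were grouped by their labels. The line pairs samples: deviations from group means correlated between samples of a line with a mean r of 0.73 and a lowest of 0.58 over 45 pairs, and a fit with the line as a block was run beside the fit without. The labels do not say that libraries of a group came from separate experiments other than by line. Members and gene lists were chosen with earlier results of these data known. Named genes are the members, their direct partners, list genes called in any comparison, the 3 highest genes of a list, and the 3 genes most like a member. Promoters came from RefSeq (GRCm38.p6), found for 8 of 10 members. A few genes of the lists are not reported here. Scripts were tested on simulated data. Figures used matplotlib 3.10.9. Alternatives were another pseudocount (0.1 TPM), no or a stricter filter, only the compared groups, a trended robust variance, each line left out, and a median-of-ratios rescaling, the last combined with the block after seeing the data.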

Additional observations from a re-analysis of the deposited data

How the results depend on the processing

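Cyld kept its call with every sgRNA under every alternative except sgPpia#3.2 without line 4716-11, and the call of Mlkl in sgBgal cells held under the other pseudocount, both filters, the trended robust variance, the block and without line 4716-11. The cause of the changes below was not tested. The count of genes called for the p53 response ran over the fits without a line from 471 to 674 with sgBgal, from 229 to 633 with sgPpia#3.2 and from 278 to 690 with sgPpia#4.1, each lowest without line 4716-11, against 980, 738 and 781 with all lines. With only the compared groups it was 367 with sgPpia#3.2 and 416 with sgPpia#4.1. The replicate block gave 1414, 1105 and 1177 genes. For sgPpia#3.2 against sgBgal the block called 2 genes in Control cells (1 with the rescaling too) and 1 in Restored cells, and it changed no member's call there. With a pseudocount of 0.1 the line comparisons of 4716-11 called 1387 genes against 4711-1 and 1776 against 4711-18. Without a line no gene was called in the comparisons of Ppia sgRNAs with sgBgal (0 in each).

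Values that changed sign were small and not called. Under the rescaling, without and with the block, Casp8 was -0.14 and Fadd -0.18 in sgBgal cells, and Casp8 was -0.093 in sgPpia#3.2 and -0.12 in sgPpia#4.1 cells. Over the fits without a line, Fadd ran from -0.087 (without 4711-1) to 0.11 in sgBgal cells, from -0.17 to 0.014 (without 4711-18) in sgPpia#3.2 cells and from -0.058 to 0.045 (without 4711-1) in sgPpia#4.1 cells. Ripk3 ran from -0.074 to 0.0019 (without 4711-1) in sgBgal cells and from -0.32 to 0.14 (without 4716-11) in sgPpia#4.1 cells, and Gsdmd from -0.093 to 0.015 (without 4716-11) in sgPpia#3.2 cells. For sgPpia#4.1 against sgBgal in Control cells, Ripk1 ran from -0.15 to 0.040 (without 4711-18). The interaction ran for Cflar from -0.44 to 0.070 (without 4711-18) with sgPpia#3.2, and with sgPpia#4.1 from -0.069 (without 4711-18; -0.031 without 4716-11) to 0.30 for Cflar and from -0.10 (without 4711-18; -0.073 without 4716-11) to 0.32 for Cyld. For 4711-18 against 4711-1, Mlkl was -0.036 under the rescaling and -0.16 in Control samples alone, where Ripk1 was -0.029. TPM carry no depth, so no counting interval was given, and Ripk3 in 4716-11 and Zbp1 rest on few reads.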
